A study of Mus musculus with 9 samples.

Results

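The 10 genes described here are Arg1, Nos2, Il4ra, Mrc1, Retnla, Il10, Tgfb1, Tgfbr1, Tgfbr2 and Cd274, which stand for alternative activation of macrophages and for suppressor functions of myeloid cells. They were taken by gene symbol from the 23238 symbols of the count data, and all 10 were listed. The data are QuantSeq 3ʹ RNA-seq read counts of sorted monocytes from a mouse model of neuromyelitis optica (NMO), an autoimmune disease in which antibodies against the astrocyte water channel aquaporin-4 (NMO-IgG) damage the central nervous system. There were 3 groups of 3 libraries, each library being made from a pool of 5 mice. The sources used here do not say whether the blood and brain libraries of NMO mice came from the same animals. Nor_Bl_mono was blood monocytes of normal, untreated mice. NMO_Bl_mono was blood monocytes, and NMO_Br_mono brain monocytes, of mice 1 day after NMO-IgG and human complement had been injected into the striatum unilaterally. All mice were wild type, female and of the C57BL/6N strain, and were 12 weeks old when the model was made. Cells were sorted as CD45+ CD11b+ P2ry12- Ly6G- and positive for Ly6C, a gate that the study's methods give as Ly6C high and its results as Ly6C+. No library came from monocytes of a normal brain or from mice injected with control IgG, so tissue and disease cannot be told apart in NMO_Br_mono, nor injection and antibody in either NMO group.

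Macrophages exposed to IL-4 or IL-13 signal through IL-4 receptor alpha and STAT6 and turn on a set of genes that includes arginase 1, the mannose receptor and Retnla, a state known as alternative activation. Arginase 1 and inducible nitric oxide synthase (Nos2) compete for arginine, and the balance between them has long been used to tell alternatively from classically activated cells. IL-10, TGF-beta and PD-L1 restrain T cells and other immune cells. Monocytic suppressor cells are known for using arginase, IL-10, TGF-beta and PD-L1 among other means.

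The 250 bases before the transcription start are shown for Mrc1, Il4ra and Tgfbr1, which lay higher in every brain library than in any blood library, and for Retnla, a classical STAT6 target that was counted in 1 brain library. They come from RefSeq on GRCm38.p6, read 5ʹ to 3ʹ on the plus strand of the genome, which is the strand of all 4 genes. Capitals mark matches, on either strand, to a STAT6 motif (TTCNNNNGAA) or a C/EBP motif (TTGCNNAA). An AP-1 motif (TGANTCA) was also searched.
Retnla: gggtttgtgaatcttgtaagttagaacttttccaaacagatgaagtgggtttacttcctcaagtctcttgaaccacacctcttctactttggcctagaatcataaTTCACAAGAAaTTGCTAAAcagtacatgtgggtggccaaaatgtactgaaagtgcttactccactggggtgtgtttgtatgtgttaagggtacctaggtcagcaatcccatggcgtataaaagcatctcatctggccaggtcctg
Mrc1: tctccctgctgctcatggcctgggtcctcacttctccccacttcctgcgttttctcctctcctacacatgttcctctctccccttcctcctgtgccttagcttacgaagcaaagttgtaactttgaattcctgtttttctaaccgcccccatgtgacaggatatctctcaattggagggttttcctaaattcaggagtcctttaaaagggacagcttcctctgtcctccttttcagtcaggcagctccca
Il4ra: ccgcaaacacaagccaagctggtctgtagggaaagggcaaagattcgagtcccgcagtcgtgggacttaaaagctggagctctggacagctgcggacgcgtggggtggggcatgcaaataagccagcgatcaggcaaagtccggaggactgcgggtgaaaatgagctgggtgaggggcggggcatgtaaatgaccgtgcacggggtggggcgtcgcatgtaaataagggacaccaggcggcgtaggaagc
Tgfbr1: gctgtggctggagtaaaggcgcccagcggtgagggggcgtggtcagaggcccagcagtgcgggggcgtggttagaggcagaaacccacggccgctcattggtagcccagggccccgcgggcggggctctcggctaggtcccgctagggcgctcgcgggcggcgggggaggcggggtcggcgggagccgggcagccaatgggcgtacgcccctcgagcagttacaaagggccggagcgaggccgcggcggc
The windows lie at chr16:48842359-48842608 for Retnla, chr2:14229164-14229413 for Mrc1, chr7:125552021-125552270 for Il4ra and chr4:47352972-47353221 for Tgfbr1. The Retnla window held a STAT6 match, TTCACAAGAA, starting 145 bases before the start site and a C/EBP match, TTGCTAAA, starting 134 bases before it. The windows of Mrc1, Il4ra and Tgfbr1 held none of the 3 motifs. Windows were found for 7 of the 10 genes, and of the other windows that of Tgfbr2 held a C/EBP match, TTGCGAAA, 205 bases before the start, while those of Tgfb1 and Cd274 held no match. The STAT6 and C/EBP matches in the Retnla window do not share bases. Over 27025 windows of the same length, 5.86% held the STAT6 motif, 9.55% the C/EBP motif and 6.87% the AP-1 motif. These are matches of letters only.

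Library depth was between 7584649 and 10419647 counts. Rn45s, a symbol of ribosomal RNA, held 28.4% to 43.6% of them, and between 4567 genes (NMO_Bl_mono replicate 3) and 11556 genes (NMO_Bl_mono replicate 1) had a count. NMO_Bl_mono replicate 3 stood apart from its group, with a Pearson r of 0.536 and 0.517 to replicates 1 and 2 on log2 CPM. Those 2 libraries had an r of 0.804 with each other. The fold changes of Arg1, Il4ra, Mrc1 and Tgfbr1 between NMO_Br_mono and NMO_Bl_mono are therefore also given without NMO_Bl_mono replicate 3. Counts and medians of the pathway lists, and values of the genes named from them, include it. The 3 NMO_Br_mono libraries were about as unlike each other, with r of 0.578, 0.641 and 0.537. Values below are CPM, read counts scaled to the library total, adjusted with TMM factors, which ranged from 0.8011 to 1.459. A count of 0 allows up to 3 counts, or 0.271 to 0.429 CPM depending on the library, and this limit covers counting error only. The labelled cell type was checked with marker genes. The 10 monocyte markers, among them Ly6c2, Ccr2 and Lyz2, summed to 3857 to 7824 CPM over all libraries, but members went both ways. Ly6c2 was at 435, 59.1 and 198 CPM in brain and 460 to 928 CPM in blood. Ptprc was at 463 to 1004 CPM in brain and 1143 to 1882 CPM in blood. Both lay below all blood libraries, while Itgam, Ccr2 and Cd14 lay above them and the other members overlapped. In every group the sort also left markers of other cells. The 10 NK cell markers summed to 2587 to 3690 CPM in blood and 21.1 to 433 CPM in brain, and 10 platelet markers to 546 to 3282 CPM in blood and 0 to 39.6 CPM in brain. The 7 erythroid markers summed to 893 to 5392 CPM in blood and 1.04 to 400 CPM in brain. The 7 dendritic cell markers summed to 23.0 to 222 CPM in blood and 167 to 551 CPM in brain, with overlap. Sums of the B cell and T cell lists were at most 142 CPM. The 12 microglia markers summed to 0.0904 to 394 CPM in blood and 834 to 1066 CPM in brain. Cx3cr1, the largest part of each brain sum, was at 541, 295 and 335 CPM there and overlapped with blood, at 0.0904 to 320 CPM. P2ry12 also overlapped, at 9.89 to 69.3 CPM in brain and 0 to 43.2 CPM in blood. Tmem119 was at 0 in blood and at 77.9, 0 and 20.9 CPM in brain. Of the 12, 4 lay above all blood libraries in brain. Among these was Fcrls, a gene typical of microglia, at 0 in all 6 blood libraries and at 52.4, 77.1 and 50.3 CPM in brain. Of the neutrophil list 9 of 10 markers were listed, with sums of 84.5 to 307 CPM in blood and 442 to 1780 CPM in brain. Without S100a8 and S100a9, which monocytes also express, the other 7 summed to 0.904 to 224 CPM in blood and 216 to 316 CPM in brain. These sums overlapped, but members went both ways. Ngp alone of the 7 lay above all blood libraries, at 57.5, 243 and 101 CPM in brain and 0 to 27.3 CPM in blood. Retnlg was at 0 in all brain libraries and at 0 to 124 CPM in blood. The 10 border macrophage markers, which include Mrc1, summed to 298 to 1246 CPM in blood and 398 to 637 CPM in brain, with Folr2 at 0 in all 9 libraries. Most of the blood sums came from F13a1 and from Pf4, which is also on the platelet list, and without both the other 8 summed to 0 to 52.2 CPM in blood and 142 to 230 CPM in brain. These 2 shorter lists were made after the values were seen. In pooled libraries, fewer cells of a type and less RNA per cell cannot be told apart.

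**Figure D1:**
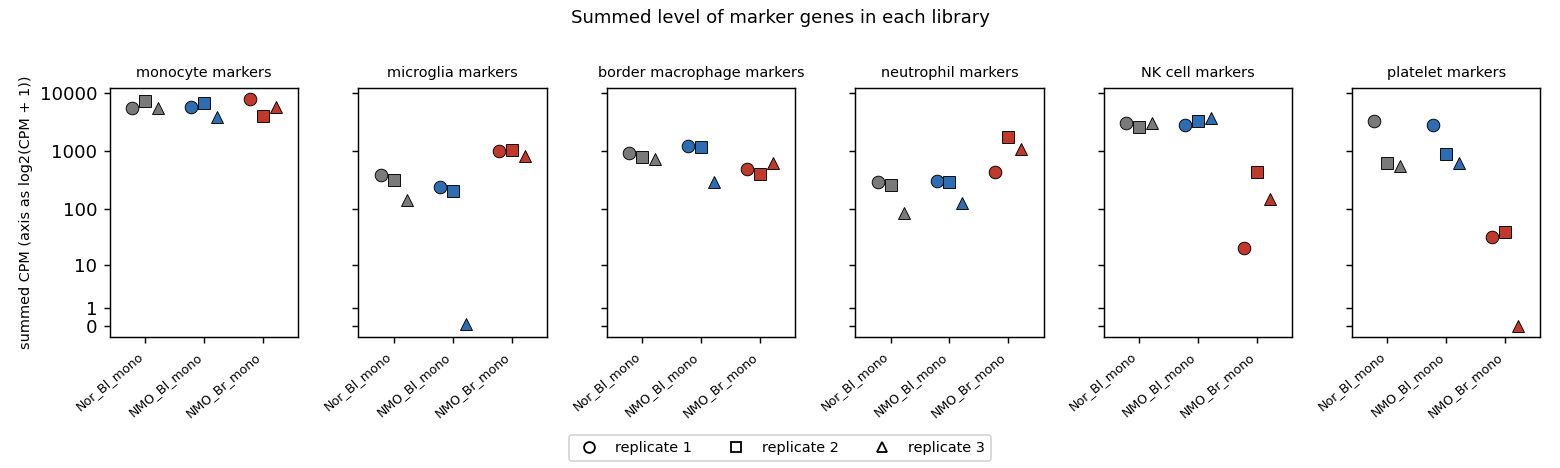
Summed CPM of 6 marker lists (y axis, spaced as log2(CPM + 1)) in the 3 libraries of each group (x axis). Each point is a library and its shape gives the replicate. The microglia and neutrophil sums of the 3 NMO_Br_mono libraries lie above those of all 6 blood libraries and the NK cell and platelet sums lie below them.

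Among the 10 genes, 4 were higher in each brain library than in each of the 6 blood libraries: Arg1, Mrc1, Tgfbr1 and Il4ra. Over all 10107 genes tested the share with this pattern was 3.57%. The same 4 genes separated NMO_Br_mono from NMO_Bl_mono alone, where the share over all genes was 6.3%. Nos2 was at 0 in all libraries. Retnla and Il10 were counted in 1 and 2 libraries, and Tgfb1, Tgfbr2 and Cd274 overlapped between brain and blood. An exact two-sided permutation test of the mean log2(CPM + 1) of 3 brain against 6 blood libraries, run for the 9 genes with a count, gave p = 0.0238 for each of the 4, which is the smallest value that 84 arrangements allow. Any gene with all 3 brain libraries above all blood libraries gets this p, so it restates the separation, and it is not adjusted for the 9 genes. The differences were 6.67 for Arg1, 3.08 for Mrc1, 2.38 for Tgfbr1 and 1.32 for Il4ra on that scale.

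**Figure D2:**
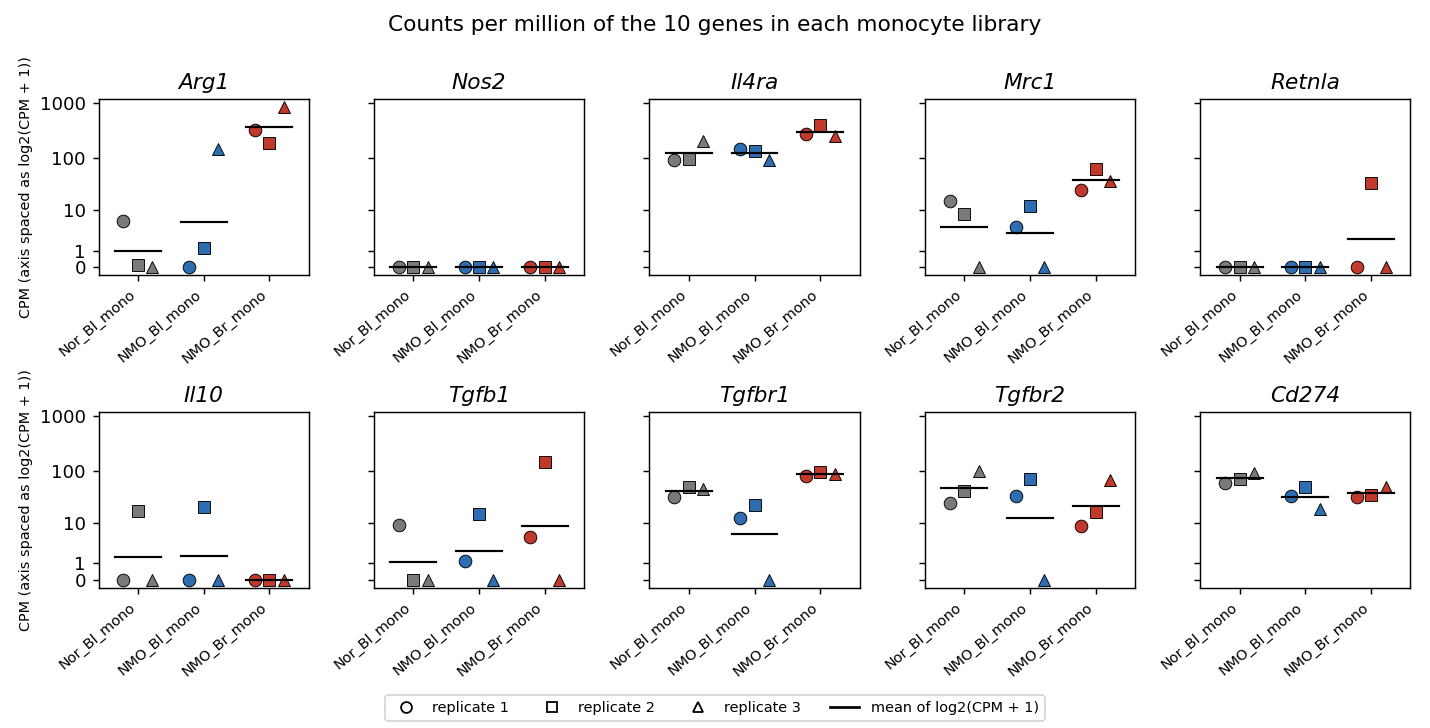
CPM of the 10 genes (y axis, spaced as log2(CPM + 1)) in the 3 libraries of each group (x axis). Each point is a library, its shape gives the replicate and the bar is the group mean of log2(CPM + 1). Arg1, Il4ra, Mrc1 and Tgfbr1 have all 3 red NMO_Br_mono points above the blood points, and Nos2 lies at 0 throughout.

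Of the 10 genes, 7 had enough counts to be tested in the fit across all genes (edgeR, quasi-likelihood test with Benjamini-Hochberg adjustment). None of the 7 had an adjusted p under 0.05 in any of 4 comparisons. Between NMO_Br_mono and NMO_Bl_mono, 0.247% of all genes passed that threshold. The share was 0.0% between NMO_Bl_mono and Nor_Bl_mono, 0.247% between NMO_Br_mono and Nor_Bl_mono, and 0.435% between NMO_Br_mono and both blood groups together. At the threshold of an unadjusted p under 0.05 with a fold change of at least 1.2, Il4ra alone passed between NMO_Br_mono and NMO_Bl_mono, against 5.32% of all genes. With DESeq2 the count was 2 and with limma-voom 3, where 954 and 1293 of all genes passed in place of 538. With library sizes alone it was 0, and with a library left out 0 to 3. Neither DESeq2 nor limma-voom gave a gene of the 10 with an adjusted p under 0.05 in this comparison. Against both blood groups, limma-voom gave 1 such gene, Arg1. Arg1 alone passed the unadjusted threshold between NMO_Bl_mono and Nor_Bl_mono, against 0.712% of all genes. Arg1 and Il4ra passed it between NMO_Br_mono and Nor_Bl_mono, where the share was 5.82%, and between NMO_Br_mono and both blood groups, where it was 6.89%. The brain comparisons share libraries, so these counts are not separate evidence.

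**Figure D3:**
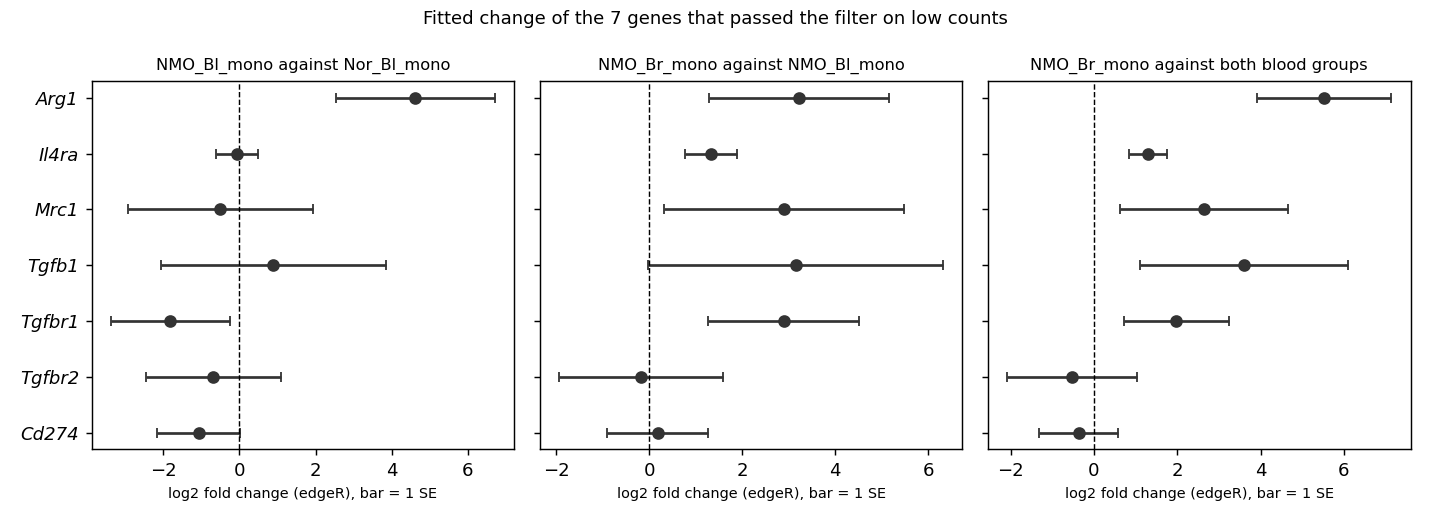
Log2 fold change with 1 standard error (x axis) of the 7 genes tested (y axis) in 3 comparisons, 1 panel each. Between NMO_Br_mono and NMO_Bl_mono the standard error was 0.56 for Il4ra and 1.08 to 3.17 for the other 6 genes.

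Arg1, which encodes the enzyme that splits arginine into ornithine and urea, had the widest range of levels. Its CPM was 5.86, 0.105 and 0 in Nor_Bl_mono replicates 1, 2 and 3, then 0, 1.19 and 144 in NMO_Bl_mono, and 325, 187 and 841 in NMO_Br_mono. The brain libraries were all high, and 5 of the 6 blood libraries were under 6 CPM. The exception was NMO_Bl_mono replicate 3, which held 1592 counts of Arg1 where the other 2 libraries of its group held 0 and 11. Group means were 1.99 ± 3.36 CPM in Nor_Bl_mono, 48.4 ± 82.7 in NMO_Bl_mono and 451 ± 345 in NMO_Br_mono (SD, n = 3).

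The separation of Arg1 was narrow at this library. Without TMM factors, on library sizes alone, NMO_Bl_mono replicate 3 was at 210 CPM and the lowest brain library at 203 CPM, so that the groups overlapped and 3 of the 10 genes rather than 4 lay above all blood libraries. The log2 fold change between NMO_Br_mono and NMO_Bl_mono was 3.22 (SE 1.94, adjusted p = 0.926, edgeR). Without NMO_Bl_mono replicate 3 it was 9.49, with an adjusted p of 0.13. Against both blood groups the log2 fold change was 5.53 (SE 1.61, unadjusted p = 0.0041, adjusted p = 0.293, edgeR). That adjusted p was 0.0159 without NMO_Bl_mono replicate 3, 0.0497 without Nor_Bl_mono replicate 1 and 1.36e-12 with no filter on low counts, and its range over all alternatives was 1.36e-12 to 0.728.

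In blood, Arg1 had a log2 fold change of 4.62 between NMO_Bl_mono and Nor_Bl_mono (SE 2.09, unadjusted p = 0.0441, adjusted p = 1, edgeR). It turned to -1.61 without NMO_Bl_mono replicate 3, so the sign rested on that library. Between NMO_Br_mono and Nor_Bl_mono its log2 fold change was 7.84 (SE 2.41, unadjusted p = 0.00581, adjusted p = 0.494, edgeR), with a range of 7.03 to 12.76 when any library was left out.

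Nos2, inducible nitric oxide synthase, had 0 counts in each of the 9 libraries. Its level was therefore not detectable above 0.429 CPM in any of them, and no change could be tested. Of 15 other genes of arginine and nitric oxide metabolism, 10 were tested between NMO_Br_mono and NMO_Bl_mono and 0 passed at the adjusted or the unadjusted threshold in edgeR. Their median log2 fold change was 0.70, against 0.05 over all genes. Arg2, the mitochondrial arginase, was at 2.34 to 40.4 CPM in Nor_Bl_mono, 12.9 to 63.0 in NMO_Bl_mono and 20.1 to 50.5 in NMO_Br_mono, and the groups overlapped. Odc1, which uses ornithine for polyamine synthesis, was at 45.7 to 71.7 CPM in NMO_Bl_mono and 3.26 to 34.6 CPM in NMO_Br_mono. Its 3 brain libraries lay under the 3 NMO_Bl_mono libraries, but the change was not called (unadjusted p = 0.266, edgeR). Slc7a1, an arginine transporter named here after its values were seen, was at 95.4, 71.5 and 74.5 CPM in NMO_Br_mono and 0.271 to 71.4 CPM in blood, so the lowest brain library was just above the highest blood library (unadjusted p = 0.2 between NMO_Br_mono and NMO_Bl_mono, edgeR). Slc7a2, another arginine transporter, reached 33.6 CPM in NMO_Br_mono replicate 1 and was at 4.29 CPM or less elsewhere. Ass1, which rebuilds arginine from citrulline, was at 0.631 CPM or less in all libraries.

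Il4ra, the ligand-binding chain shared by the IL-4 and IL-13 receptors, had the smallest standard error of the 7 genes tested. It was at 90.3, 94.7 and 203 CPM in Nor_Bl_mono, 145, 134 and 91.6 CPM in NMO_Bl_mono and 273, 406 and 252 CPM in NMO_Br_mono. The lowest brain library was above the highest blood library, and the 2 blood groups overlapped. Group means were 129 ± 64.1, 124 ± 28.2 and 310 ± 83.4 CPM (SD, n = 3), a ratio of 2.51 between NMO_Br_mono and NMO_Bl_mono.

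The log2 fold change of Il4ra between NMO_Br_mono and NMO_Bl_mono was 1.33 (SE 0.56, unadjusted p = 0.0314, adjusted p = 0.802, edgeR). Over all alternatives it stayed between 1.00 and 1.47, with adjusted p from 0.218 to 1. Against both blood groups it was 1.30 (SE 0.46, unadjusted p = 0.0133, adjusted p = 0.541, edgeR), with adjusted p from 0.0667 to 0.808 over the alternatives. Between the 2 blood groups it was -0.07 and changed sign under some settings.

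The partners of this receptor were also expressed. Il2rg, the common gamma chain, was at 227 to 258 CPM in Nor_Bl_mono, 194 to 562 in NMO_Bl_mono and 128 to 273 in NMO_Br_mono. Il13ra1, which pairs with IL-4 receptor alpha to bind IL-13, was at 21.3 to 71.6, 1.63 to 77.3 and 66.7 to 80.3 CPM. Stat6, the transcription factor downstream, was at 137 to 150, 51.0 to 114 and 38.5 to 155 CPM. In all 3 genes brain and blood overlapped. The ligands Il4 and Il13 had 0 counts in all libraries.

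Mrc1 encodes the mannose receptor CD206, an uptake receptor of alternatively activated and border macrophages. It was at 15.3, 8.20 and 0 CPM in Nor_Bl_mono, 4.46, 12.1 and 0 CPM in NMO_Bl_mono and 25.2, 61.8 and 36.8 CPM in NMO_Br_mono. All brain libraries were above all blood libraries, and replicate 3 of both blood groups had 0 counts. The log2 fold change was 2.90 between NMO_Br_mono and NMO_Bl_mono (SE 2.59, adjusted p = 1) and 2.65 against both blood groups (SE 2.02, adjusted p = 0.983, edgeR), so the difference was little larger than its standard error in the fit.

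Mrc1 is itself on the border macrophage list. Of the other 9 genes on it, Ms4a7 was at 0 to 6.93 CPM in blood and at 25.6, 51.6 and 14.4 CPM in brain. Stab1 was at 0 in all 6 blood libraries and at 112, 0.0946 and 72.2 CPM in brain. Cbr2 was at 0 to 27.7 CPM in blood and ranged from 0 to 82.5 CPM in brain, with overlap. Siglec1 and Folr2 were at 0 in all 3 brain libraries, and Cd163 and Lyve1 were each counted in 1 of them. F13a1, which classical monocytes also express, was at 173 to 885 CPM in blood and 167 to 495 CPM in brain, and Pf4 at 107 to 539 CPM in blood and 0 to 22.5 CPM in brain. Without F13a1, Pf4 and Mrc1 the other 7 genes summed to 0 to 44.0 CPM in blood and 105 to 169 CPM in brain. This shorter list too was made after the values were seen, and the sums of the full list overlapped between brain and blood. The part of border macrophages in the level of Mrc1 was not tested.

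Retnla, a secreted resistin-like protein induced by IL-4, had 357 counts in NMO_Br_mono replicate 2, or 33.8 CPM, and 0 counts in the other 8 libraries. It is the gene with the STAT6 and C/EBP letters in its promoter window shown above. As 1 library carried all of its counts, it was not tested in edgeR, and the exact permutation test gave a difference of 1.71 on the log2(CPM + 1) scale with p = 0.667. Reads that aligned to several genes were counted by the authors, and Retnla belongs to a family of similar genes. Its relative Retnlg was at 0 CPM in all 3 brain libraries at 124, 84.3 and 37.6 CPM in Nor_Bl_mono and at 78.4, 16.8 and 0 CPM in NMO_Bl_mono.

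Of 26 further genes of IL-4 and IL-13 signalling and alternative activation, 18 were tested between NMO_Br_mono and NMO_Bl_mono. None had an adjusted p under 0.05 in edgeR, while 1 was higher and 2 were lower at the unadjusted threshold. Their median log2 fold change was 0.73, against 0.05 over all genes, of which 5.32% passed the unadjusted threshold. The gene that was higher was Mgl2, a lectin of alternatively activated macrophages and dendritic cells, with 78.5, 44.5 and 99.4 CPM in NMO_Br_mono and 0 to 2.51 CPM in the blood libraries (log2 fold change 5.74, SE 2.43, adjusted p = 0.802, edgeR). Jak1, a kinase of many cytokine receptors, was lower, at 520, 350 and 404 CPM in NMO_Br_mono and 757 to 1178 CPM in blood, with a log2 fold change of -1.28 (SE 0.34, adjusted p = 0.316, edgeR). The other lower gene was Retnlg, named here after its values were seen, whose NMO_Bl_mono replicate 3 was at 0 as all brain libraries were. Chil3, another product of alternative activation that shares sequence with Chil4, was at 370 to 411 CPM in Nor_Bl_mono, 377 to 958 in NMO_Bl_mono and 379 to 800 in NMO_Br_mono, with full overlap.

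Il10 was counted in 2 libraries, with 162 counts in Nor_Bl_mono replicate 2 and 189 counts, or 20.5 CPM, in NMO_Bl_mono replicate 2. All 3 brain libraries had 0 counts. The exact permutation test gave a difference of -1.43 on the log2(CPM + 1) scale with p = 0.833, and the gene was not tested in edgeR. The receptor and its signalling were expressed in most libraries. Il10ra, the ligand-binding chain, was at 82.6 to 210 CPM in Nor_Bl_mono, 0 to 141 in NMO_Bl_mono and 34.6 to 126 in NMO_Br_mono, and Il10rb, the other chain, was at 20.0 to 54.4, 0 to 14.4 and 26.9 to 139 CPM. Il10rb thus lay higher in NMO_Br_mono than in NMO_Bl_mono, without passing the test (unadjusted p = 0.118, edgeR), and overlapped with Nor_Bl_mono. Stat3 was at 411 to 631, 315 to 446 and 274 to 385 CPM, and Socs3, its feedback inhibitor, at 110 to 575, 68.4 to 765 and 347 to 494 CPM. Among 12 tested genes of the IL-10 list, 0 were called after adjustment between NMO_Br_mono and NMO_Bl_mono in edgeR. At the unadjusted threshold 1, Jak1, was lower, against 5.32% of all genes passing. The median log2 fold change was 0.53, against 0.05 over all genes.

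Tgfbr1, the type I receptor kinase, was at 31.5, 49.7 and 44.9 CPM in Nor_Bl_mono, 12.8, 22.9 and 0 CPM in NMO_Bl_mono and 80.5, 95.4 and 88.3 CPM in NMO_Br_mono. The 3 groups did not overlap, with NMO_Bl_mono lowest and NMO_Br_mono highest, and the brain mean of 88.1 ± 7.46 CPM (SD, n = 3) had the smallest spread relative to its mean of the 8 genes counted in that group. The log2 fold change was 2.89 between NMO_Br_mono and NMO_Bl_mono (SE 1.62, unadjusted p = 0.0969, adjusted p = 0.853, edgeR) and 1.98 against both blood groups (SE 1.26, adjusted p = 0.829, edgeR). Between NMO_Bl_mono and Nor_Bl_mono it was -1.82 (SE 1.56, adjusted p = 1, edgeR). The microglia marker sums, which also separated brain from blood, are given above. The part of microglia in the level of Tgfbr1 was not tested.

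Tgfbr2, the type II receptor that binds the ligand, was at 24.3, 41.8 and 99.8 CPM in Nor_Bl_mono, 33.3, 69.6 and 0 CPM in NMO_Bl_mono and 8.55, 16.4 and 65.9 CPM in NMO_Br_mono. All groups overlapped, and the log2 fold change between NMO_Br_mono and NMO_Bl_mono was -0.18 (SE 1.76, adjusted p = 1, edgeR), with a sign that changed with the library left out.

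Tgfb1, the ligand itself, was carried by single libraries. It was at 9.01, 0 and 0 CPM in Nor_Bl_mono, 1.25, 15.5 and 0 CPM in NMO_Bl_mono and 5.17, 144 and 0 CPM in NMO_Br_mono. NMO_Br_mono replicate 2 was far above the rest, and each group had a library at 0. The log2 fold change between NMO_Br_mono and NMO_Bl_mono was 3.15 (SE 3.17, adjusted p = 1, edgeR) and turned to -1.09 without NMO_Br_mono replicate 2. That library also held the counts of Retnla. Of the other ligands, Tgfb2 was at 0 in all blood libraries and at 51.4, 0.378 and 3.96 CPM in NMO_Br_mono, and Tgfb3 was at 0 in NMO_Br_mono and reached 13.3 CPM in Nor_Bl_mono replicate 1.

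Downstream of the receptors, the TGF-beta list held the only gene on any of the pathway lists with an adjusted p under 0.05. Of 30 listed genes 24 were tested between NMO_Br_mono and NMO_Bl_mono, and 1 was higher after adjustment, against 0.247% of all genes. At the unadjusted threshold 3 were higher and 1 was lower, against 5.32% of all genes. The median log2 fold change was 0.28, against 0.05 over all genes. The gene higher after adjustment was Tgfbi, a secreted matrix protein named for its induction by TGF-beta. It was at 155, 364 and 369 CPM in Nor_Bl_mono, 314, 416 and 360 CPM in NMO_Bl_mono and 1745, 1469 and 2078 CPM in NMO_Br_mono, and rose with a log2 fold change of 2.28 (SE 0.38, adjusted p = 0.0235, edgeR). The adjusted p was 0.0814 without NMO_Bl_mono replicate 1, 0.0769 without NMO_Br_mono replicate 3 and 0.0712 when only the 2 groups were fitted.

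Thbs1, thrombospondin 1, which activates latent TGF-beta, was at 1276, 874 and 1059 CPM in NMO_Br_mono and 146 to 528 CPM in blood (log2 fold change 1.86, SE 0.44, adjusted p = 0.183, edgeR). Pmepa1, a target and inhibitor of TGF-beta signalling, was at 54.2, 173 and 96.8 CPM in NMO_Br_mono and at 0 to 1.81 CPM in blood, 5 of the 6 blood libraries being at 0 (adjusted p = 0.66, edgeR). The lower gene was Ltbp1, which binds latent TGF-beta and was at 0 in NMO_Br_mono and NMO_Bl_mono replicate 3. It is named here after its values were seen.

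Smad2, Smad3, Furin and Nrros, signal transducers and processing factors of the pathway, overlapped between brain and blood, and Smad7 did not. Smad2 was at 22.4 to 88.6 CPM in NMO_Br_mono and 0 to 56.0 in blood. Smad3 was at 24.8 to 66.4 CPM in brain and 26.8 to 201 in blood, and Smad7, the inhibitory member, at 0 to 18.8 CPM in brain and 25.5 to 110 in blood. Smad7 thus lay lower in all brain libraries, with an unadjusted p of 0.0857 between NMO_Br_mono and NMO_Bl_mono (edgeR). Furin, the protease that cleaves pro-TGF-beta, was at 26.0 to 193 CPM in brain and 44.6 to 214 in blood, and Nrros, which presents latent TGF-beta on myeloid cells, at 11.2 to 215 and 33.7 to 217 CPM.

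Cd274 encodes PD-L1, the ligand of the inhibitory receptor PD-1. It was at 58.6, 70.0 and 88.6 CPM in Nor_Bl_mono, 34.1, 50.2 and 18.8 CPM in NMO_Bl_mono and 32.4, 34.9 and 49.3 CPM in NMO_Br_mono. Each of the 3 normal libraries was above all 6 libraries of NMO mice, and NMO_Bl_mono and NMO_Br_mono overlapped. Group means were 72.4 ± 15.1, 34.4 ± 15.7 and 38.9 ± 9.11 CPM (SD, n = 3).

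Cd274 and Tgfbr1 were the 2 of the 10 genes whose blood groups did not overlap, both lower in NMO_Bl_mono, against 6.8% of all genes with no overlap in either direction. Leaving out NMO_Bl_mono replicate 3 cannot make these groups overlap, so it is no check of the pattern. On library sizes alone Cd274 overlapped and Tgfbr1 did not. The log2 fold change of Cd274 was -1.07 between NMO_Bl_mono and Nor_Bl_mono (SE 1.09, adjusted p = 1, edgeR), -0.90 between NMO_Br_mono and Nor_Bl_mono (SE 1.09, adjusted p = 1, edgeR) and 0.18 between NMO_Br_mono and NMO_Bl_mono (SE 1.08, adjusted p = 1, edgeR). With 3 libraries against 3, an exact permutation test cannot give a p under 0.1.

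Of 18 further checkpoint ligands and inhibitory receptors, 16 were listed and 11 tested. After adjustment 0 were called between NMO_Br_mono and NMO_Bl_mono in edgeR, and 2 were higher at the unadjusted threshold. The list had a median log2 fold change of 0.80, against 0.05 over all genes, of which 5.32% passed the unadjusted threshold. The first was Lilrb4a, an inhibitory receptor of myeloid cells, at 972, 797 and 1084 CPM in NMO_Br_mono and 252 to 484 CPM in blood (log2 fold change 1.45, SE 0.38, adjusted p = 0.308, edgeR). The other was Havcr2, which encodes TIM-3, at 110, 0.567 and 74.8 CPM in NMO_Br_mono and 0 to 26.7 CPM in blood, named here after its values were seen. Pdcd1lg2, which encodes PD-L2, was at 3.06 CPM in NMO_Bl_mono replicate 1 and at 0 in the other 8 libraries. Cd80, a costimulatory ligand, was at 19.5, 67.7 and 26.7 CPM in NMO_Br_mono and 0 to 18.6 CPM in blood, without overlap (unadjusted p = 0.445 between NMO_Br_mono and NMO_Bl_mono, edgeR), and Cd86 was at 11.8 to 65.8 and 0 to 42.1 CPM.

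Suppressor cell genes and genes of classical activation gave no call between NMO_Br_mono and NMO_Bl_mono. In the suppressor list 16 of 18 genes were tested, and 0 passed either threshold in edgeR. Its median was 0.74 on the log2 scale, against 0.05 over all genes. Between NMO_Br_mono and Nor_Bl_mono 4 of its genes were higher and 1 was lower at the unadjusted threshold, where 5.82% of all genes passed. Against both blood groups 2 were higher and 1 was lower, where 6.89% of all genes passed. After adjustment 0 passed in either comparison (edgeR). In the list of classical activation 11 of 15 genes were tested. Between NMO_Br_mono and NMO_Bl_mono 0 passed either threshold, and the median was -0.36. At the unadjusted threshold 1 was higher and 3 were lower against Nor_Bl_mono, and 1 was higher and 2 were lower against both blood groups. Il1b, which encodes the inflammatory cytokine IL-1 beta and is named here after its values were seen, was the gene of this list with every brain library above all blood libraries. It was at 110, 123 and 0.102 CPM in Nor_Bl_mono, 237, 304 and 0 CPM in NMO_Bl_mono and 1586, 1506 and 956 CPM in NMO_Br_mono. Its unadjusted p was 0.114 between NMO_Br_mono and NMO_Bl_mono and 0.0216 against both blood groups, with adjusted p of 0.903 and 0.618 (edgeR). Tnf was at 37.0, 93.2 and 42.7 CPM in NMO_Br_mono and ranged from 0 to 338 CPM in blood, and Il6 was at 0 in NMO_Br_mono and reached 33.9 CPM in blood.

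**Figure D4:**
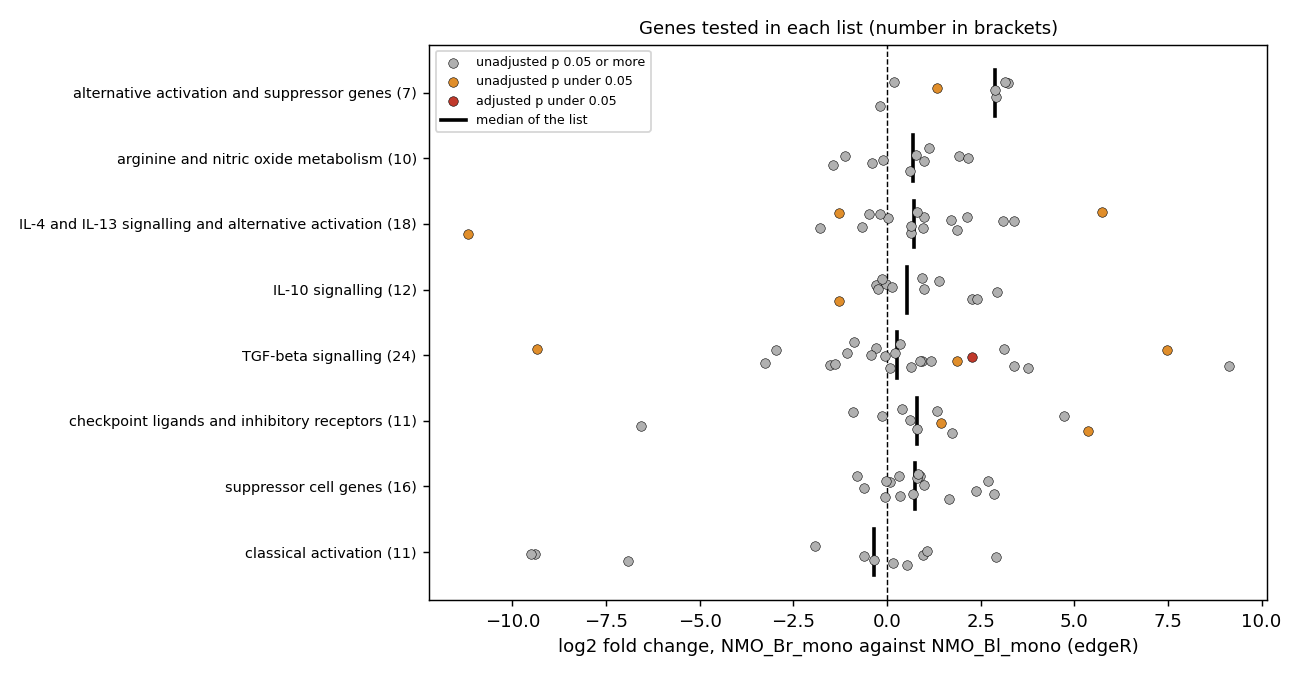
Log2 fold change between NMO_Br_mono and NMO_Bl_mono (x axis) of each gene tested in the 10-gene set and the 7 pathway lists (y axis, number tested in brackets). Each point is a gene and the bar is the median of a list. The only red point, adjusted p under 0.05, is Tgfbi at 2.28, and the points left of -5 are genes at or near 0 in all 3 brain libraries, whose fitted size depends on the prior count.

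The genes whose levels most resembled those of Arg1 over the 9 libraries, among 8848 genes, were Cd63 with a Pearson r of 0.96 on the log2(CPM + 1) scale, Champ1 with 0.94, Rnh1 with 0.93, and Kcnq1ot1 and Ctsz with 0.91 each. Cd63, a lysosomal membrane protein, was at 102, 126 and 147 CPM in NMO_Br_mono and 4.10 to 65.3 CPM in blood, with its highest blood value, as for Arg1, in NMO_Bl_mono replicate 3. For Mrc1 they were Cbx6 with 0.98, Prkaa1, Lrrc42 and Gm16712 with 0.97 each, and Nde1 with 0.96. Cbx6, Prkaa1 and Lrrc42 were at 0 in the same 2 blood libraries as Mrc1. These correlations describe 9 libraries that share their depth and their groups, and no test was made of them.

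Leaving out single libraries moved the 7 fold changes between NMO_Br_mono and NMO_Bl_mono to different degrees. Il4ra ranged from 1.10 to 1.47, Tgfbr1 from 2.31 to 3.79 and Mrc1 from 2.32 to 4.22. Without NMO_Bl_mono replicate 3 they were 1.16, 2.31 and 2.32 in that order, with adjusted p of 0.677, 0.677 and 1 (edgeR). Arg1 ranged from 2.43 to 9.49 and Tgfb1 from -1.09 to 6.30. The 4 genes that lay higher in brain than in all blood libraries necessarily kept this pattern with a library left out. The CPM were scaled over all 9 libraries first, so leaving one out cannot undo a separation and is no check of it. In these reduced sets 4.02% to 8% of all genes had the pattern.

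**Figure D5:**
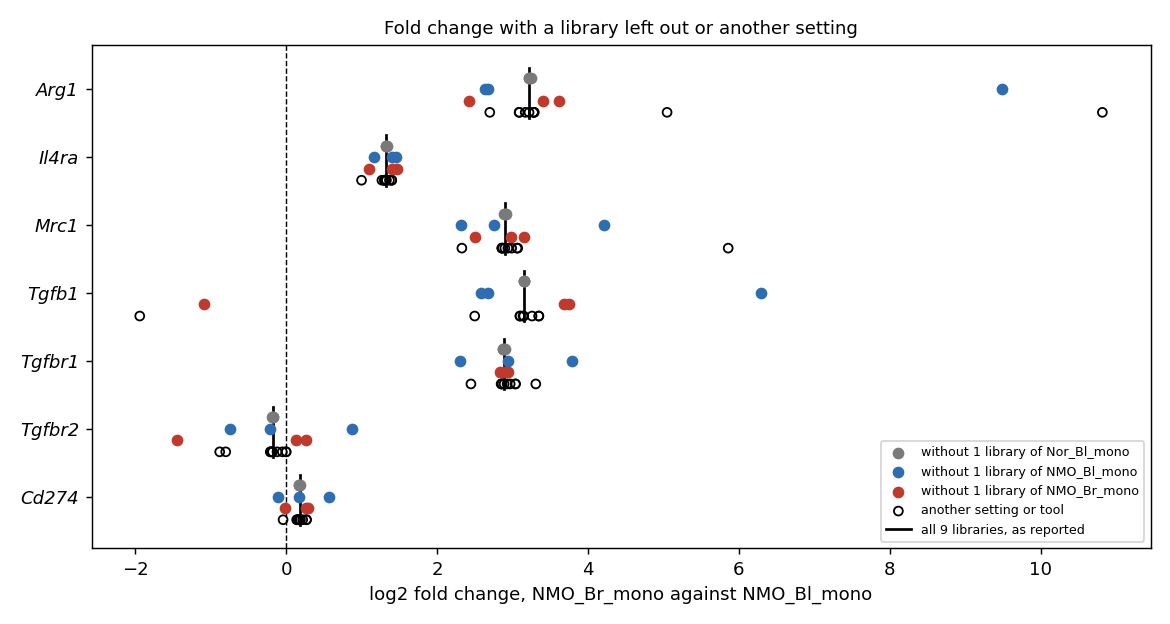
Log2 fold change between NMO_Br_mono and NMO_Bl_mono (x axis) of the 7 genes tested (y axis). Filled points leave out 1 library and are coloured by its group, open points are other settings or tools, and the vertical bar is the value from all 9 libraries. Arg1, Il4ra, Mrc1 and Tgfbr1 stay right of 0 throughout, and Tgfb1, Tgfbr2 and Cd274 have points on both sides.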

How the data were processed

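Single-end QuantSeq 3ʹ reads of the 9 libraries were aligned by the authors with Bowtie2 and counted per gene with Bedtools coverage from unique and multiple alignments; the submitters' processing notes name mm10, and versions are not given in the sources used here. The deposited values are raw read counts per gene symbol, before the TMM and CPM scaling that the authors state. Molecules were not tagged, so limits from counts cover counting error only.

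Groups came from the sample labels. Of 23282 entries per library, 35 symbols were listed more than once and the entry with most counts was kept, which left 23238 symbols. CPM were computed with TMM factors. Of these symbols, 10107 passed filterByExpr by group and were tested with edgeR 4.0.16 (glmQLFit, glmQLFTest) in R 4.3.3, all 9 libraries in 1 fit, with Benjamini-Hochberg adjustment; the common dispersion was 2.87. Replicates of a group were independent pools per the study's methods, so p-values measure the spread between these pools, and Pearson r between replicates of a group was 0.517 to 0.804 on log2 CPM. An edgeR SE here is the size of the log2 fold change divided by the square root of its F statistic. It therefore restates the p-value of that test. Single genes were also compared by an exact permutation test on log2(CPM + 1) in scipy 1.17.1. The edgeR test was checked on simulated data, with a pass condition only at a spread far smaller than the common dispersion here. That check does not show how many true changes are found at the spread of these libraries.

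The 10 genes and the pathway and marker lists were chosen with earlier results of these data known. A gene of a pathway list was named if it was a direct partner of one of the 10, had an adjusted p under 0.05 in any comparison, or had an unadjusted p under 0.05 without overlap between NMO_Br_mono and NMO_Bl_mono; for Arg1 and Mrc1, the 5 genes of highest Pearson r with a mean of at least 5 CPM were named. Genes outside this rule are marked. Alternatives were RLE factors, library sizes alone, no Rn45s, no filter, a filter of at least 10 counts, a fit of only the compared groups, a block for the replicate number, each library left out, a robust fit, DESeq2 1.42.0, limma-voom (limma 3.58.1) and log2(CPM + 0.1). Promoter windows came from RefSeq, GRCm38.p6. Ly6g, Vsir and Nectin2 were not analysed here, nor were other samples of the study.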

Additional observations from a re-analysis of the deposited data

How the results depend on the processing

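With edgeR the number of all genes with an adjusted p under 0.05 was 25 between NMO_Br_mono and NMO_Bl_mono, and 110 with no filter, 7 with only the groups compared, 336 with DESeq2, 51 with limma-voom and 15 to 36 with a library left out. Between NMO_Bl_mono and Nor_Bl_mono it was 0 (72 at the unadjusted threshold), and 2 with no filter and 69 with DESeq2. Between NMO_Br_mono and Nor_Bl_mono it was 25, and 115 with no filter, 366 with DESeq2, 38 with the robust fit and 11 to 62 with a library left out. Against both blood groups it was 44, and 181 with no filter, 495 with DESeq2, 122 with limma-voom and 21 to 90 with a library left out. Of the 10 genes, 1 was called after adjustment in each comparison with no filter, and against both blood groups also 1 with limma-voom and 0 to 1 with a library left out. That gene was Arg1. At the unadjusted threshold the count between NMO_Br_mono and NMO_Bl_mono was 0 with library sizes alone, 2 with DESeq2, 3 with limma-voom and 0 to 3 with a library left out. Between the blood groups it was 0 with at least 10 counts, only the groups compared, the replicate block, DESeq2, limma-voom and the robust fit, and 0 to 1 with a library left out. Between NMO_Br_mono and Nor_Bl_mono it was 1 with no filter, the replicate block and the robust fit and 1 to 2 with a library left out, and against both blood groups 1 with the robust fit and 1 to 3 with a library left out.

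Signs turned as follows. Between NMO_Br_mono and NMO_Bl_mono the log2 fold change of Tgfb1 was -1.94 with limma-voom and -1.09 to 6.30 with a library left out, that of Tgfbr2 was 0 with RLE factors and DESeq2 and -1.45 to 0.88, and that of Cd274 -0.04 with limma-voom and -0.11 to 0.57. Between the blood groups Arg1 was at -1.58 with limma-voom and -1.61 to 9.53 with a library left out, and Il4ra at 0.03 with library sizes alone, 0.45 with limma-voom and -0.27 to 0.42. The brain minus blood difference on the log2(CPM + 1) scale was 6.08 to 7.73 for Arg1, 2.63 to 3.44 for Mrc1, 1.56 to 2.69 for Tgfbr1, 1.11 to 1.47 for Il4ra, 0 to 2.56 for Retnla, -0.11 to 3.48 for Tgfb1 and -1.12 to 0.43 for Tgfbr2 with a library left out, and 0.32 for Tgfbr2 with log2(CPM + 0.1). For the first 4 of these genes the exact permutation p was 0.0357 without a blood library and 0.0714 without a brain library, the smallest values those numbers allow. The cause of these changes was not tested.

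Deviations from the group mean had correlations of -0.0102 to 0.116 between same-numbered libraries and -0.0956 to 0.0301 between the others. Between the 2 blood groups the same-numbered values were 0.116, 0.0151 and 0.0692. All of these were above the highest of the other blood pairs, 0.00547. Whether libraries of the same number share an effect was not tested, and the main fit had no block for it. With the replicate block the log2 fold change of Arg1 between NMO_Br_mono and NMO_Bl_mono was 5.05 (adjusted p = 1, edgeR) and that of Il4ra 1.31 (adjusted p = 1, edgeR). Nos2, Retnla and Il10, counted in 0, 1 and 2 libraries, were not tested in the fit across all genes, and their levels below 0.271 to 0.429 CPM were not detectable at this depth.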
